A study of Mus musculus with 2 samples.

Results

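Socs3, Bhlhe40, Cebpd, Cebpb, Bcl3, Stat3, Il6st, Osmr, Il6 and Lif were followed across thymic epithelial cells (TECs) of irradiated and control mice. These 10 genes, of 32285 listed in the count tables, cover the feedback inhibitor, target genes, transcription factor, receptors and ligands of the IL-6 family pathway through STAT3. They were chosen by a result of the same cells, namely that Socs3 and Bhlhe40 were lower in the irradiated library in every compared cluster, so every difference between the libraries given here is a description. UMIs of Fos and Atf3, genes that cells switch on rapidly during tissue digestion and sorting, were set beside them as a measure of handling stress.

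The study used C57BL/6 female mice that received 5.5 Gy of total body γ-irradiation at 7 weeks of age, and age-matched controls with no irradiation. TECs sorted as EpCAM+ CD45- TER119- were analysed 15 days later by droplet single-cell RNA sequencing, which counts transcripts by unique molecular identifiers (UMIs). There was 1 library per condition, a pool of 3 mice, and so no replicate: no difference was tested, and intervals are exact 95% intervals that cover counting error only. The library labelled Radiation kept 3233 cells and the library labelled Control kept 5070. These numbers, and the names of the deposited files, match the opposite conditions in the study's text, so the library of 3233 cells is called control here and the library of 5070 cells irradiated. If the labels are right instead, every direction between the libraries given below turns round.

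IL-6, LIF, oncostatin M and their relatives bind receptors that share the gp130 chain, encoded by Il6st, and activate JAK kinases, which phosphorylate STAT3. STAT3 then enters the nucleus and induces Socs3, whose protein binds gp130 and JAKs and shuts the signal down, together with Bcl3, Cebpd and other genes. Several of these genes also answer to stress kinases, NF-κB and AP-1, the dimers of Fos and Jun family proteins. In the thymus, cytokines of the IL-6 family act on the epithelium, and mice lacking Stat3 in TECs have a disturbed medulla.

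The 300 bases around the transcription start (250 before it, 50 after it) were read from RefSeq promoters (GRCm38.p6) for 8 of the 10 genes. Bhlhe40 and Cebpd had none. Each start is that of the RefSeq promoter and can differ from the edge of the gene span given below. For Socs3 and Osmr the 250 bases before this start lie inside that span (chr11:117966079-117970047 and chr15:6813577-6874969). The 250 bases before the start of Socs3, at chr11:117969367-117969616 on the minus strand, are shown because Socs3 is the feedback gene of the pathway. Capitals mark its STAT-type motif, TTCNNNGAA on either strand.

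Socs3: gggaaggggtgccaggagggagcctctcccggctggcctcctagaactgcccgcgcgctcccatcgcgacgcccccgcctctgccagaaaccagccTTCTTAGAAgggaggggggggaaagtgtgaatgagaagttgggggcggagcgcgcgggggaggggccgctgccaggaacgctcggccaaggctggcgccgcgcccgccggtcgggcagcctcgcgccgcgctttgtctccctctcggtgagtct

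The match stood at -154, counted from 0 at the start (chr11:117969512-117969520), and Socs3 was the only 1 of the 8 genes with a STAT-type match. Of all 32851 promoters searched, 8.30% held this motif. The AP-1-type motif TGANTCA was found in 3 of the 8 genes and in 7.81% of all promoters. The C/EBP-type motif TTGCNNAA was found in 1 gene and in 10.8% of all promoters, the NF-κB-type motif GGGNNTTCC in 1 gene and in 5.82%, and the E-box CACGTG, bound by Bhlhe40 protein, in 0 genes and in 7.15%. None of these 5 motifs overlapped another in the 8 windows. Each pattern has a fixed length, so the longer stretch gggattttcc in the Il6 window was not counted as NF-κB-type. The matches in the ligands, in Osmr and in Bcl3 follow with their surroundings, with the motif in capitals, since these are the other members with a match. A match is a description of the letters and not evidence of binding.

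Il6, AP-1 at -249: cTGAGTCActtttaaaga

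Il6, C/EBP at -128: cgacgtcacaTTGTGCAAtcttaataag

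Lif, AP-1 at -228: cagtcagctgTGACTCAggccatagtg

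Osmr, AP-1 at 3: gccccgtagtTGATTCAtagctggggc

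Bcl3, NF-κB at -104, the first of 2 matches: cgcgggtccaGGAAACCCCtggggcggac

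The kept cells of the control library held 51586327 UMIs and those of the irradiated library 75542631, with medians of 13412 and 13003.5 per cell. Epcam was found in 97.7% of control and 97.9% of irradiated cells, and Ptprc, which encodes CD45, in 4.24% and 4.34%, as a level of genes that sorted TECs should lack. The libraries shared 17 cell barcodes, 5 of them kept in both. Cells fell into 14 clusters, of which 10 (C0 to C9) had at least 100 cells in each library and were compared. By fixed markers, C1 was Ccl21a+ mTEC-like, C6 transit-amplifying mTEC-like, C7 cTEC-like and C9 tuft-like. The others are called by their leading genes: S100a9 and S100a8 in C0, which had the highest Aire level of 11.3 UMIs per 10000, Wfdc18 and Crp in C2, Lypd8 and Ccl9 in C3, Pou2af1 and Ccnd2 in C4, Ackr4 and Dcn in C5, and Atf3 and Fos in C8. Over both libraries Ccl21a was at 129 UMIs per 10000 in C1 but also at 119 in C8 and 87.4 in C2. High Ccl21a was thus not particular to C1. Of the smaller clusters, C10 was led by Spink5 and Krt10 and C11, with 37 and 110 cells, was nurse cTEC-like.

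Levels are summed UMIs of a gene per 10000 summed UMIs of the same cells. Of the 16986 genes with at least 100 UMIs over both libraries, 8.78% were lower in the irradiated library by more than 1.5-fold and 1.61% were higher by more than that. Of 9 members with enough UMIs, 2 (Socs3 and Bhlhe40) were lower by more than 1.5-fold and 0 were higher. Of 9009 genes with enough UMIs in each compared cluster, 1.93% were lower in the irradiated library in all 10 clusters and 3.22% were higher in all 10. Of 8 members in that set, 2 were lower in all 10 clusters and 0 were higher in all 10, which is what the choice of genes had fixed. The median log2 ratio of irradiated over control was -0.30 over the 9 members and -0.05 over all genes. Both this median and the count of 2 of 9 include Socs3 and Bhlhe40, which were picked for being lower. The gap to all genes is therefore in part fixed by the choice and is no result about the members.

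The handling stress genes stood apart from this background. Of 18 listed genes, 16 were lower by more than 1.5-fold in the irradiated library and 17 were lower in all 10 clusters, Nr4a1 being higher in C3. Fos, an AP-1 subunit, had a level of 10.0 among control cells and of 3.72 among irradiated cells (log2 ratio -1.43). Atf3, a stress-induced transcription factor, was at 3.18 and 0.883 (log2 ratio -1.85). Counted from the lowest of the 16986 log2 ratios, Atf3 ranked 58, Fos 145, Socs3 338 and Bhlhe40 364. The part of handling in the difference between the libraries cannot be told apart from that of irradiation, because each condition was digested, sorted and sequenced as 1 library.

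Socs3 (ENSMUSG00000053113, GRCm38 chr11:117966079-117970047, minus strand) encodes the SOCS3 feedback inhibitor. It gave 16511 control and 11257 irradiated UMIs, or 3.20 (3.15 to 3.25) and 1.49 (1.46 to 1.52) UMIs per 10000, a 2.15-fold lower level in the irradiated library (log2 ratio -1.10, interval -1.14 to -1.07). The difference was lowest in size in C3 (1.02 against 0.856, log2 ratio -0.26), C9 (2.42 against 1.86, -0.38) and C0 (0.693 against 0.510, -0.44). It was highest in C5 (7.84 against 2.92, -1.43), C6 (2.16 against 0.877, -1.30) and C2 (6.45 against 2.78, -1.22). The intervals of the 2 libraries did not overlap in any of the 10 clusters, and 7 of the 10 passed 1.5-fold. Among the smaller clusters, C11 did not follow, with 0.730 in control and 0.782 in irradiated cells (log2 ratio 0.09, interval -0.27 to 0.48).

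Within each library Socs3 varied more between clusters than it did between the libraries. C8 had the highest level, 15.9 in control and 8.27 in irradiated cells, but Socs3 was itself among the 10 leading genes of C8, beside the 5 stress genes Atf3, Fos, Fosb, Dusp1 and Dnajb1, so this level helped to define the cluster. When the members and the stress genes were left out of the clustering, 94.4% of the 323 cells of C8 joined a cluster led by Ccl11 and Cxcl14. Socs3 was lower in the irradiated library in 9 of 9 compared clusters of that setting. These are the same cells by which Socs3 was chosen, so the count is a description and no separate support. Below C8, the control order was C5, C2, C1, C7 and then C9, C6 and C4, whose intervals overlapped with their neighbours, followed by C3 and, lowest, C0. In the irradiated library C5 (2.92) and C2 (2.78) overlapped at the top, and C4, C6 and C3 (0.936, 0.877 and 0.856) overlapped below. Among the compared clusters, those with high Aire or cycling genes (C0, C3, C4 and C6) carried less Socs3 than C1, C5 and C7 in both libraries. Low Socs3 was not particular to clusters with high Aire. The smaller C10 was at 1.67 in control and 1.02 in irradiated cells, and the nurse cTEC-like C11 at 0.730 and 0.782. Over both libraries Aire was at 0.410 in C10 and 0.062 in C11.

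Bhlhe40 (ENSMUSG00000030103, chr6:108660629-108666925, plus strand) encodes a basic helix-loop-helix repressor that takes part in the clock and in responses to cytokines and hypoxia. It gave 3152 and 2187 UMIs, or 0.611 (0.590 to 0.633) and 0.290 (0.277 to 0.302) per 10000, with a log2 ratio of -1.08 (-1.16 to -0.998). The level was 1.52 in control and 0.596 in irradiated cells of C2, 0.866 and 0.327 in C1, and 0.569 and 0.192 in C5, which had the largest log2 ratio in size (-1.56). The smallest were in C0 (0.249 and 0.188, -0.41) and C3 (0.221 and 0.166, -0.41). In 8 of the 10 clusters the difference passed 1.5-fold. Bhlhe40 was highest in C8 (3.18 and 1.42), followed by C2 in both libraries. In the irradiated library the interval of C2 (0.596) overlapped that of the tuft-like C9 (0.448). Unlike Socs3, Bhlhe40 was no higher in C5 than in C9, C4 or C7 beyond the counting intervals.

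**Figure D1:**
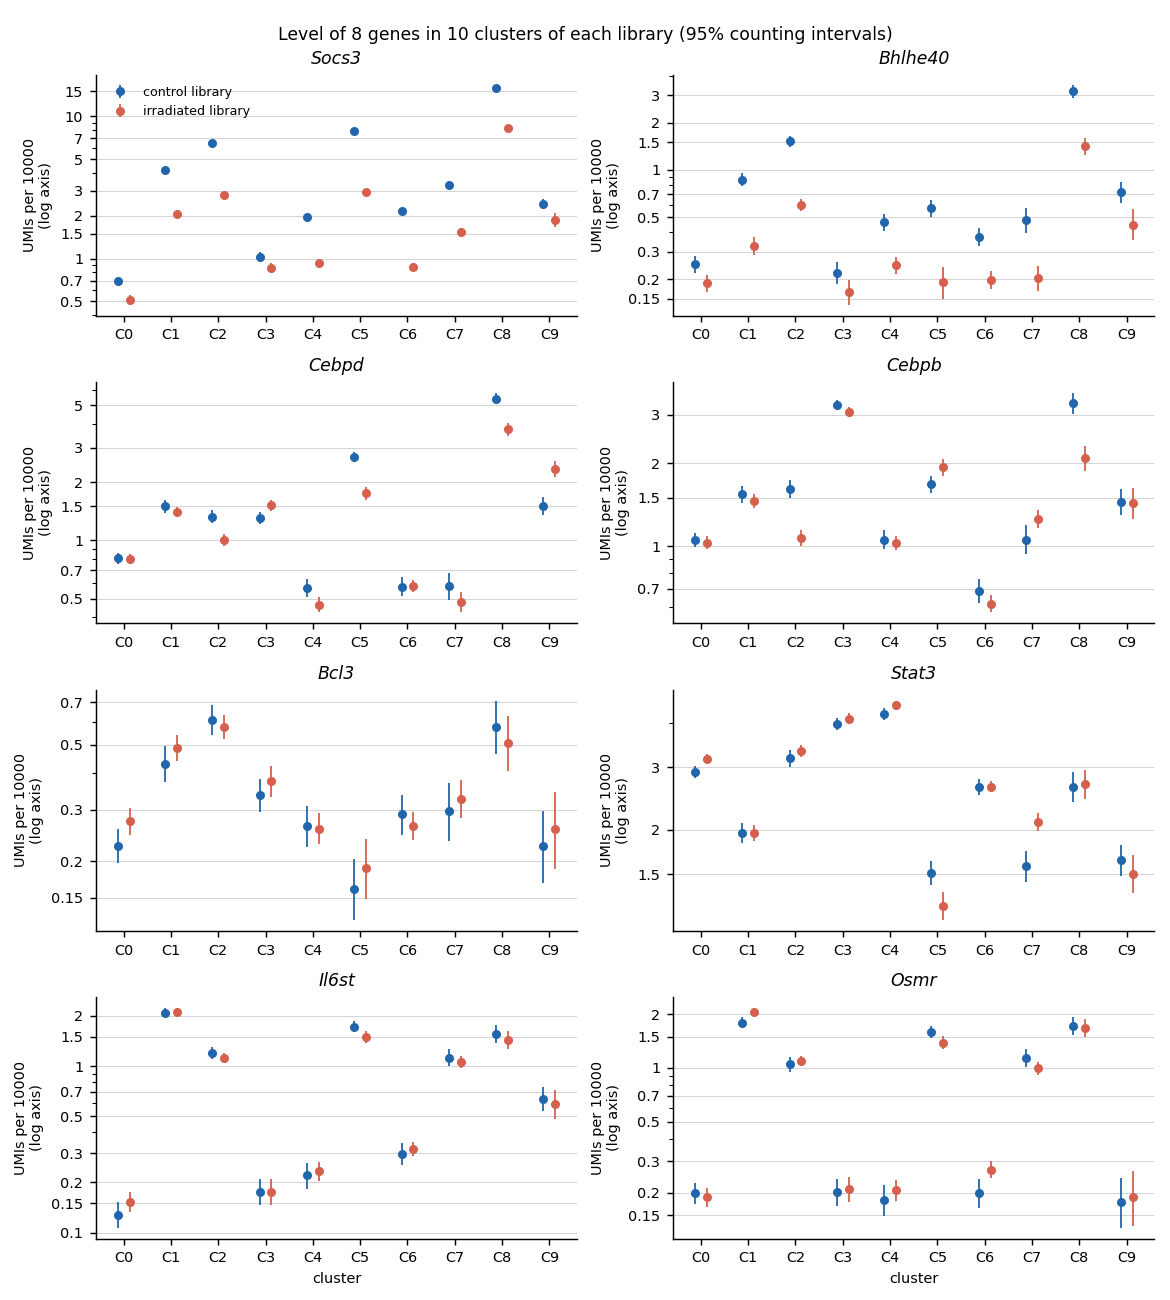
Level of 8 genes (UMIs per 10000 summed UMIs, log axis) in the 10 compared clusters of the control library (blue) and the irradiated library (red), with 95% counting intervals as lines. Socs3 was lower in the irradiated library in 10 of 10 clusters, from 15.9 against 8.27 in C8 to 0.693 against 0.510 in C0, while Stat3, Il6st and Osmr were within 1.5-fold between the libraries in each of these clusters.

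The C/EBP factors of the list behaved otherwise. Cebpd (ENSMUSG00000071637, chr16:15887286-15891031, plus strand) encodes C/EBPδ, an acute-phase factor that STAT3 induces. It was at 1.25 in control and 0.979 in irradiated cells (log2 ratio -0.36, interval -0.40 to -0.31), lower in 7 clusters and higher in 3. The interval of its log2 ratio lay below 0 in 4 clusters and above 0 in 2. Its level was 2.69 in control and 1.75 in irradiated cells of C5 (-0.62), and 5.39 and 3.76 in C8 (-0.52). The tuft-like C9 went the other way, with 1.51 in control and 2.34 in irradiated cells (0.64, interval 0.43 to 0.85), and so did C3, with 1.30 and 1.51 (0.21). With the clusters weighted alike in both libraries, the pooled log2 ratio of Cebpd came to -0.13, closer to 0 than in the sum of all cells.

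Cebpb (ENSMUSG00000056501, chr2:167688915-167690418, plus strand) encodes C/EBPβ, which acts downstream of IL-6 in inflammation. It was at 1.73 and 1.41 (log2 ratio -0.30, interval -0.34 to -0.26), lower in 8 clusters. The interval of its log2 ratio lay below 0 in only 3 of these, and above 0 in 2 other clusters. Of the 10 clusters, only the Atf3-led C8 (3.30 and 2.09, -0.66) and C2 (1.61 and 1.07, -0.59) were lower by more than 1.5-fold, and the cTEC-like C7 (1.06 and 1.26, 0.25) and C5 (1.68 and 1.93, 0.21) were higher. Cebpb was highest in the small C10, led by the keratinocyte genes Spink5 and Krt10, with 8.04 in control and 7.47 in irradiated cells, and lowest in the transit-amplifying mTEC-like C6 (0.685 and 0.618). Weighted by cluster, its log2 ratio was -0.09.

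Bcl3 (ENSMUSG00000053175, chr7:19808462-19822770, minus strand), an atypical IκB protein that binds NF-κB dimers in the nucleus, was at 0.318 and 0.343 (log2 ratio 0.11, interval 0.02 to 0.20). None of the 10 compared clusters passed 1.5-fold in either direction, and in 9 of 10 the interval of the log2 ratio held 0. The exception was C0, with 0.226 in control and 0.274 in irradiated cells (0.28, interval 0.03 to 0.52). Bcl3 was highest in C2 (0.610 and 0.576) and C8 (0.577 and 0.509), whose intervals overlapped, and lowest in C5 (0.161 and 0.189). C5 was thus near the top for Socs3 and at the bottom for Bcl3 in both libraries.

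The transcript of Stat3 (ENSMUSG00000004040, chr11:100885098-100939540, minus strand) was close in level between the libraries. It gave 14496 and 22366 UMIs, or 2.81 and 2.96 per 10000, a log2 ratio of 0.08 (0.05 to 0.11). By cluster the log2 ratio ran from -0.31 in C5 (1.52 and 1.22) to 0.42 in the cTEC-like C7 (1.58 and 2.11), with 0 of 10 clusters past 1.5-fold. Stat3 was highest in the Pou2af1-led C4 (4.23 and 4.48) and the Lypd8-led C3 (3.95 and 4.10), the latter being among the clusters lowest in Socs3. UMIs measure the amount of Stat3 mRNA and not the phosphorylation of the protein.

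The receptor chains shared a pattern of their own. Il6st (ENSMUSG00000021756, chr13:112464070-112510086, plus strand), which encodes gp130, was at 0.716 (0.693 to 0.739) and 0.696 (0.677 to 0.715), with a log2 ratio of -0.04 (-0.10 to 0.02). Osmr (ENSMUSG00000022146, chr15:6813577-6874969, minus strand), which encodes the oncostatin M receptor chain that pairs with gp130, was at 0.655 (0.633 to 0.678) and 0.661 (0.643 to 0.680), with a log2 ratio of 0.01 (-0.05 to 0.08). Both were highest in C1, C5 and C8, followed by C2 and C7, and both were low in C0, C3, C4 and C6. Il6st was at 2.09 and 2.11 in C1 and at 0.128 and 0.154 in C0. Osmr was at 1.79 and 2.05 in C1 and at 0.199 and 0.189 in C0. The tuft-like C9 separated them, with 0.638 and 0.592 for Il6st and 0.178 and 0.190 for Osmr. The largest log2 ratio of Osmr among the compared clusters was in C6, at 0.199 and 0.270 (0.43, interval 0.12 to 0.76), and the interval also left out 0 in C5, at 1.59 and 1.39 (-0.20, interval -0.36 to -0.03), and C1 (0.19, interval 0.07 to 0.32). None of the 10 compared clusters passed 1.5-fold for either gene. Outside them Osmr was past it in C10, at 0.742 and 0.454 (-0.70, interval -1.21 to -0.22), and in C12, with 12 and 0 UMIs, and Il6st in C12, with 11 and 14 UMIs, and in C13, with 1 and 20.

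The ligands were rare in TECs. Il6 (ENSMUSG00000025746, chr5:30013114-30019981, plus strand) gave 33 UMIs in 14 of 3233 control cells and 10 UMIs in 3 of 5070 irradiated cells, under the minimum of 100 UMIs for a call. Of the control UMIs, 24 lay in 9 cells of C0, 7 in 3 cells of C5 and 2 in 2 cells of C3, and all 10 irradiated UMIs lay in C0. In C1, where the receptors were highest, 0 of 426 control and 0 of 743 irradiated cells had an Il6 UMI, which allows shares of cells with a UMI of up to 0.704% and 0.404%. For so rare a transcript this does not limit the share of cells that express it. Lif (ENSMUSG00000034394, chr11:4257557-4272514, plus strand) gave 198 UMIs in 147 control cells and 208 UMIs in 172 irradiated cells, or 0.0384 (0.0332 to 0.0441) and 0.0275 (0.0239 to 0.0315) per 10000, with a log2 ratio of -0.48 (-0.77 to -0.19). Among the 10 compared clusters its highest level was in C3 (0.0921 and 0.0647), and it had 0 UMIs in the 389 control and 366 irradiated cells of C5, which allows shares of cells with a Lif UMI of up to 0.771% and 0.820%, again no limit on the cells expressing it. Cytokines made by the thymocytes, fibroblasts and other cells that the sort removes are not measured here.

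**Figure D2:**
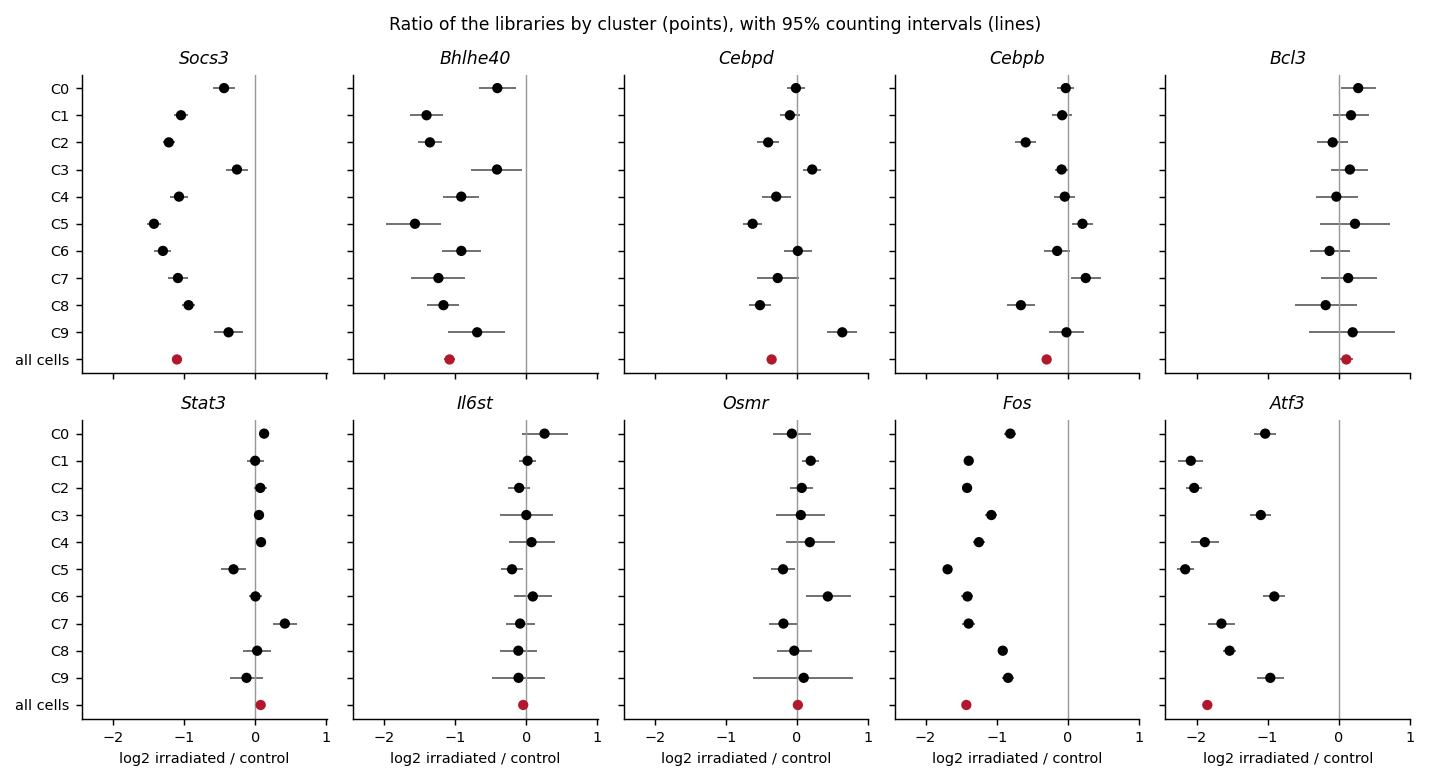
Log2 ratio of the irradiated over the control level of 8 members and of Fos and Atf3 in the 10 compared clusters (black) and in all kept cells (red), with 95% counting intervals as lines. Socs3 and Bhlhe40 lay below 0 in all 10 clusters, as did Fos and Atf3, whereas Cebpd ran from -0.62 in C5 to 0.64 in C9, Il6st from -0.20 in C5 to 0.26 in C0 and Osmr from -0.20 in C5 to 0.43 in C6.

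Because Fos and Atf3 were also lower in the irradiated library, members were compared between cells of like Fos plus Atf3 UMIs. Each cell was thinned to 4000 UMIs for the binning, which left out 5 irradiated cells. Cells with 0 such UMIs made up 34.4% of the control and 58.4% of the irradiated library, and cells with 8 or more made up 26.7% and 9.14%. Socs3 was higher in each next bin of each library. In control cells it was at 0.647 at 0 UMIs, 1.19 at 1, 2.03 at 2 to 3, 3.78 at 4 to 7 and 9.56 at 8 or more. In irradiated cells the levels were 0.663, 1.24, 1.87, 3.25 and 6.66. The log2 ratio of the libraries was 0.034 (-0.06 to 0.13) in cells with 0 Fos and Atf3 UMIs and 0.05 (-0.07 to 0.18) at 1 UMI, and then -0.12, -0.22 and -0.52 in the higher bins. With the bins weighted alike the log2 ratio of Socs3 was -0.30, against -1.10 unweighted.

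Bhlhe40 was also higher in each next bin, from 0.226 to 1.53 in control and from 0.186 to 0.868 in irradiated cells, but it was lower in the irradiated library in each bin. Its log2 ratios were -0.28 (-0.45 to -0.11), -0.26 (-0.52 to 0.008), -0.13 (-0.36 to 0.10), -0.62 and -0.81 from the lowest to the highest bin. With the bins weighted alike the ratio was -0.52. The intervals at 1 and at 2 to 3 UMIs thus held 0. No interval here covers the spread between cells or mice. Cebpd ran from 0.582 to 2.93 in control and from 0.676 to 2.99 in irradiated cells. Within a bin Cebpd was higher in the irradiated library, with log2 ratios of 0.21 (0.12 to 0.31), 0.18, 0.19, 0.21 and 0.03 (-0.06 to 0.12). Its pooled sign, -0.36, was therefore the opposite of that within bins, 0.14 when they were weighted alike. In control cells Il6st ran from 0.532 to 1.17 and Osmr from 0.464 to 1.10. Stat3 showed no such order, at 2.74 in the lowest and 2.61 in the highest control bin. From the lowest to the highest bin, the log2 ratios of the libraries were 0.25, 0.41, 0.30, 0.007 and -0.26 (-0.41 to -0.11) for Il6st. For Osmr they were 0.32, 0.44, 0.24, 0.15 and 0.03. The intervals of Il6st and Osmr lay above 0 in the bins up to 2 to 3 UMIs. For Cebpb the log2 ratios were -0.24 (-0.31 to -0.18), 0.12, -0.40 (-0.52 to -0.29), 0.09 and 0.03. For Bcl3 they were 0.13, 0.36, 0.26, -0.13 and 0.22. The bins matched cells in part: within the lowest bin the full counts of Fos still had a log2 ratio of -0.88, and within the highest one of -0.35. For Atf3 these log2 ratios were -0.52 and -0.68.

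**Figure D3:**
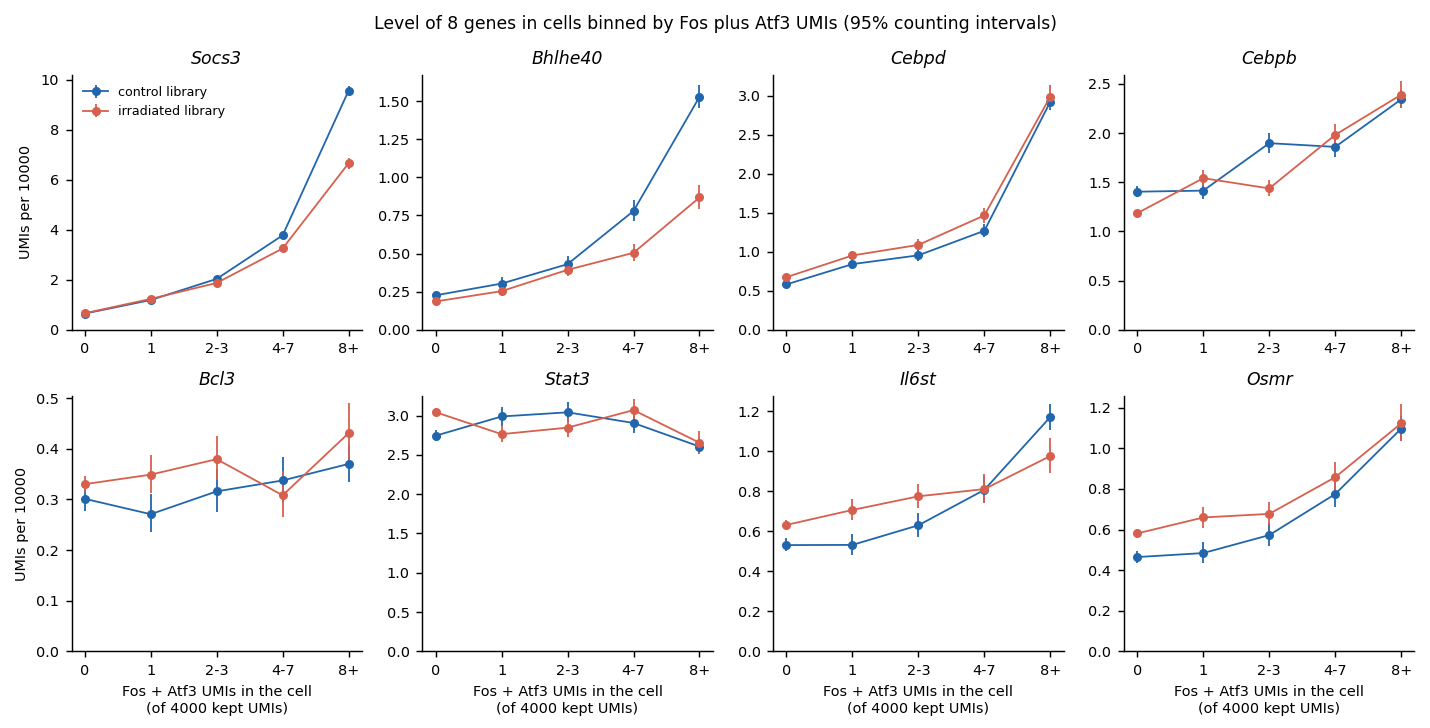
Level of 8 genes (UMIs per 10000, linear axis from 0) in cells binned by their Fos plus Atf3 UMIs after thinning to 4000 UMIs, in the control (blue) and irradiated (red) libraries, with 95% counting intervals. Socs3 lay at 0.647 and 0.663 in the lowest bin and at 9.56 and 6.66 in the highest, and Stat3 had no trend with the bins.

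Since clusters differ in Fos and in Socs3, cells with 0 or 1 Fos and Atf3 UMIs were also compared within the 9 clusters that held at least 20 of them in each library. C8 held too few. Socs3 was lower in irradiated cells in 6 of the 9, with a median log2 ratio of -0.39, and the interval lay below 0 in 5 clusters and above 0 in 2. The log2 ratio of Socs3 was lowest in the transit-amplifying mTEC-like C6 (-1.09, interval -1.30 to -0.88), with levels of 0.943 in control and 0.444 in irradiated cells. In C2 the ratio was -0.64 (interval -0.83 to -0.44), with levels of 2.45 and 1.58. Socs3 was higher in irradiated cells of C3, at 0.578 and 0.720 (0.31, interval 0.08 to 0.55), and of C1, at 1.24 and 1.44 (0.21, interval 0.01 to 0.42). Bhlhe40 was lower in 9 of 9 clusters, with a median of -0.46 and with 7 intervals below 0. Cebpd was higher in 9 of 9, with a median of 0.21 and with 4 intervals above 0. The pooled ratio near 0 for Socs3 in low-stress cells therefore held clusters of either direction.

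Over the 23 sums of a cluster and library with at least 50 cells, the log2 level of Socs3 went most closely with that of Jun, with a Pearson correlation of 0.96, among 12594 genes with at least 500 UMIs. Rnf122 (0.94), Slc7a6os (0.93), Rassf1 (0.91) and Jmjd1c (0.91) came next. Fos followed at 0.90 in sixth place, and Atf3 (0.87) and Bhlhe40 (0.87) ranked 14 and 15. Among the other members, the correlation with Socs3 was 0.76 for Il6st, 0.71 for Osmr, 0.69 for Cebpd, 0.35 for Bcl3, 0.15 for Cebpb and -0.31 for Stat3. Il6st and Osmr correlated with each other at 0.92. Within the 11 control sums alone the value for Jun was 0.97, and within the 12 irradiated sums it was 0.95, so the likeness held inside each library. The sums include C8, a cluster led by Atf3, Fos and Socs3 among others, with the highest Fos and Socs3 in each library. The clustering thus built part of this likeness in, and values without C8 are not given. The sums share 2 libraries and the cells of each cluster, and the values are given as a description.

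**Figure D4:**
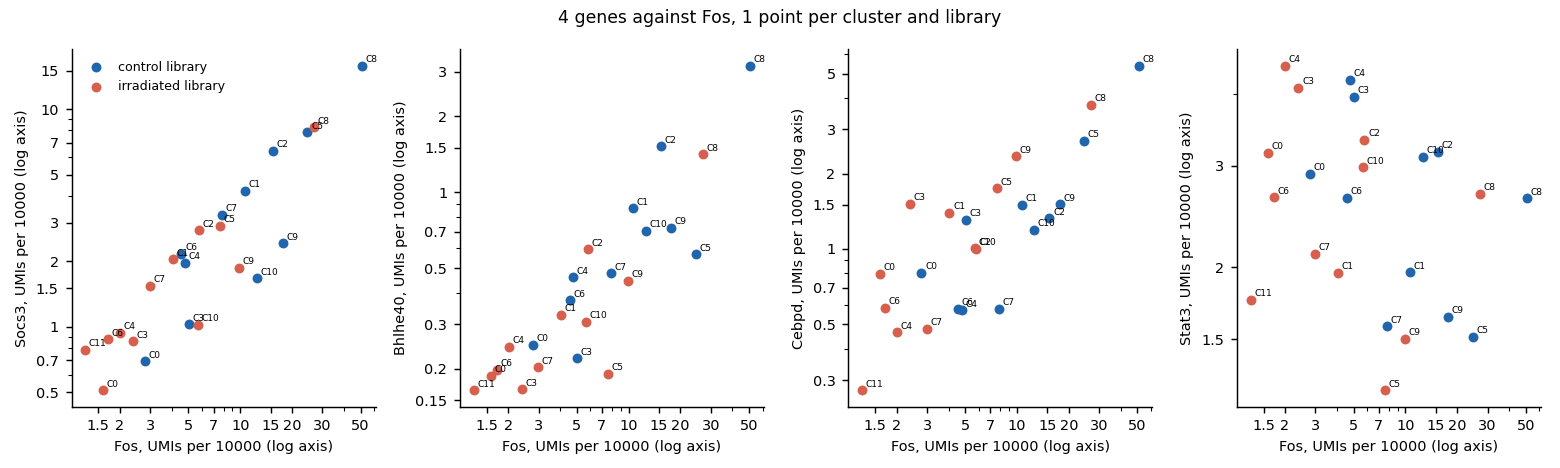
Socs3, Bhlhe40, Cebpd and Stat3 against Fos (UMIs per 10000, log axes), with 1 point per cluster and library for 23 sums, control in blue and irradiated in red. Socs3 was higher in clusters with more Fos in both libraries (Pearson correlation of log2 levels 0.90), with C9 and C10 below the run of the other points, and Stat3 was not (-0.29). C8, with the highest Fos and Socs3 in each library, was itself led by both genes.

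The wider pathway was covered by a list of 69 further genes, 61 of which had at least 100 UMIs. Of these, 8 were lower by more than 1.5-fold in the irradiated library and 0 were higher, beside the 8.78% and 1.61% of all genes, and their median log2 ratio was -0.10. The 8 were the cytokines Il31 (0.0675 and 0.0204, -1.72), Il10 (0.105 and 0.0449, -1.22), Il22 (0.161 and 0.0817, -0.98) and Il11 (0.0194 and 0.0120, -0.69), Stat4 (0.0615 and 0.0373, -0.72), and the targets Nfkbiz (0.763 and 0.339, -1.17), Klf4 (1.10 and 0.495, -1.15) and Junb (9.27 and 5.76, -0.69). Nfkbiz encodes an atypical IκB protein like Bcl3, Klf4 a zinc finger factor of epithelial differentiation and Junb an AP-1 subunit that was also on the stress list.

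Of the 8 receptors with enough UMIs, 7 were lower in the irradiated library and 1 was higher, with a median log2 ratio of -0.15. The share of all genes lower by any size is not given, so counts by any size have no background here and are a description. The median was -0.08 over the 10 kinases and STATs and -0.03 over the 13 inhibitors, beside -0.05 over all genes. Stat4 alone passed 1.5-fold in these 3 groups. No receptor with enough UMIs passed 1.5-fold (0 of 8), beside 8.78% of all genes lower and 1.61% higher by more than that. At such shares a count of 0 among so few receptors or inhibitors is no result about them. The receptor with the most UMIs, Il11ra1, was at 3.12 and 2.75 (-0.18), and Lifr, the LIF receptor chain, was at 2.13 and 2.65 (0.31) and higher in 9 of 10 clusters. Jak1, the kinase with the most UMIs, was at 1.85 and 2.04 (0.14). Of 13 inhibitors 0 passed 1.5-fold: Ptpn1, the phosphatase with the most UMIs among them, was at 2.04 and 2.14 (0.07), Socs1, the closest relative of Socs3 in function, at 1.22 and 1.16 (-0.07), and Cish, a target of STAT5, at 1.12 in both. Of 47 pathway genes with enough UMIs in each cluster, 7 were lower in all 10 clusters (Ptpn6, Junb, Pim1, Nfkbiz, Fosl2, Klf4 and Cebpa) and 0 were higher in all 10, beside 1.93% and 3.22% of all genes. Of the 17 targets with enough UMIs, 13 were lower in the irradiated library and 4 were higher, with a median log2 ratio of -0.22. By more than 1.5-fold, 3 targets were lower and 0 higher, beside 8.78% and 1.61% of all genes. Of the 7 ligands with enough UMIs, 4 were lower by more than 1.5-fold and 0 higher, with a median of -0.69, beside the same shares. The 4 ligands had the low levels given above, and only 1 ligand had enough UMIs in each compared cluster. Their ratios are thus sums over clusters whose mix differs between the libraries. Counts among so few targets and ligands are a description and no result about these groups. Ccnd1, which encodes cyclin D1, went against most targets, with a higher level in the irradiated library, at 1.01 and 1.39 (0.46).

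Markers of other cells differed between the libraries as well. The 7 fibroblast markers summed to 3.24 in control and 1.91 in irradiated cells. Over the compared clusters the sum ran from 0.354 to 20.2 in control and from 0.333 to 11.4 in irradiated cells. Most of the sum over all cells was Dcn (2.71 and 1.44), itself a leading gene of C5, where Socs3 and Bhlhe40 differed most. The 10 thymocyte markers summed to 0.879 and 1.18, the 6 myeloid markers to 3.82 and 3.17, mostly Lyz2 (3.33 and 2.69), and the 5 endothelial markers to 0.169 and 0.102, with none of these genes at 0 in both libraries. Leaving out cells with 2 or more UMIs of these 4 lists gave log2 ratios of -1.02 for Socs3, -1.15 for Bhlhe40 and -0.64 for Cebpb, the last of which had been -0.30. It also gave 0.12 for Il6st (-0.04 in all cells), 0.19 for Osmr (0.01), 0.006 for Bcl3 (0.11), 0.017 for Stat3 (0.08) and -0.25 for Cebpd (-0.36). Il6 stayed below 0 at -1.97 and Lif at -0.74. In the control library the myeloid list was at 8.75 in C0 and 10.2 in C3, and the fibroblast list at 20.2 in C5. The filter can therefore take out more cells of these clusters than of others, which changes the mix of clusters. The cells left in each cluster are not given, and the cause of the shifts was not tested.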

How the data were processed

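TECs of irradiated and of control mice were measured in 2 droplet libraries, 1 per condition, from 3 pooled mice each. The authors deposited counts of UMIs per gene and barcode, without normalization, after trimming with fastp, alignment to mm10 and counting with Cell Ranger (5.0.1 per the file headers, 5.1 per the labels). Chemistry (version 2 in the labels, 3 in the methods) and age (9 weeks, and 4 in the protocol) also disagree. Strand-specific counting was not stated in the sources used here.

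Cells had 2000 to 7500 detected genes, of genes in at least 5 barcodes, and under 15% mitochondrial UMIs, which kept 3233 of 4937 and 5070 of 7167 barcodes. Seurat 5.3.0 in R 4.3.3 was run with 3000 variable genes, 2000 anchor genes, 20 components and resolution 0.5. A cluster's leading genes were its 10 highest by fold against all other cells, if detected in 25% or more of it. Doublets were limited by the upper limit of genes alone, and UMIs of free RNA were not subtracted. Levels carry exact Poisson intervals, and log2 ratios use 0.5 added UMIs and an exact conditional binomial interval. The latter was checked on gene totals drawn from a Poisson model. That model has no spread between cells or libraries, so the check does not cover such spread. A call in every cluster needed 20 UMIs in each. Correlations used log2 of UMIs per 10000 plus 0.05.

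The members and lists were chosen with earlier results of these data known. Named genes were the 10 members, pathway genes past 1.5-fold (the 8 largest), the receptor, kinase, inhibitor and target with the most UMIs, and the 5 genes most like Socs3; Lifr, Socs1, Cish, Ccnd1 and the genes lower in all clusters were named after their values were seen. Alternatives in filters, denominators, scaling, thinning, clustering and weighting were recomputed.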

Additional observations from a re-analysis of the deposited data

Results flagged for a closer look

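Cebpd was past 1.5-fold in opposite directions in 2 cell types under the same contrast. In the tuft-like C9 it was higher in the irradiated library (log2 ratio 0.64, 1.51 and 2.34 UMIs per 10000), and in the Ackr4-led C5 it was lower (log2 ratio -0.62, 2.69 and 1.75). The difference between the clusters was not tested, since each condition had 1 library. In cells with 0 or 1 Fos and Atf3 UMIs, Cebpd was higher in the irradiated library in both, at 0.466 and 0.823 in C9 (0.80, interval 0.11 to 1.58) and at 0.660 and 0.878 in C5 (0.41, interval 0.03 to 0.81).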

How the results depend on the processing

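Over 16 alternatives the pooled log2 ratio of Socs3 was below 0 in 15 and that of Bhlhe40 in 16. Both genes were picked for being lower in these same cells. This count and the counts of clusters below are therefore a description and no separate support. In cells with 0 Fos and 0 Atf3 UMIs Socs3 turned to 0.034 and Bhlhe40 came to -0.28. With Fos plus Atf3 bins weighted alike they were -0.30 and -0.52, with bins within clusters -0.39 and -0.65, and with bins of 18 stress genes -0.44 and -0.58; these last 2 settings were chosen after seeing the data. Socs3 was -1.05 when centred on the median of all genes, -1.15 as a mean over cells, -1.18 in thinned cells, -1.02 without cells holding UMIs of other types and -0.97 with clusters weighted alike. The cause of these shifts was not tested. Under resolution 1.0 Socs3 was lower in 13 of 14 clusters, the exception being the Ccl6- and Guca2b-led part of C3 (1.26 and 1.30, log2 ratio 0.05, interval -0.20 to 0.29), and Bhlhe40 in 14 of 14. In the other cluster settings run both were lower in every compared cluster, 8 to 11 of them. Cebpd was below 0 in 12 and above 0 in 4 of its 16 alternatives, from -0.38 to 0.21, and Il6st was below 0 in 9 and above 0 in 7. No paired analysis was possible because each condition had 1 library. Depth limits Il6 (33 and 10 UMIs) and Lif, and with 1 library a condition no alternative separates irradiation from handling.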
